A study of Mus musculus with 6 samples.

Results

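The small leucine-rich proteoglycans described here are the products of 9 genes, Dcn, Bgn, Aspn, Fmod, Lum, Prelp, Omd, Ogn and Podn, picked by symbol from the 54532 genes of the deposited count table. Their RNA was measured in TM3 cells, a mouse line labelled as Leydig cells, in 3 libraries of cells overexpressing A20 and 3 libraries of control cells. The control libraries are titled as overexpression controls with the genotype WT, and all 6 libraries are labelled as TM3 grown in one medium with bovine and horse serum. A20 is the protein encoded by Tnfaip3, which edits ubiquitin chains on signalling proteins and so curbs NF-kB. The labels give neither the vector, nor the species of the A20 sequence, nor the number of clones. They also do not say that replicates came from separate cultures. The p-values therefore rest on the spread between these libraries, pooled in part over genes, and this spread may be technical. The 9 genes were named with results of the comparison between A20 overexpression and control already known, Dcn having been among the genes that were lower. Their differences between the groups are therefore given as a description, with no p-value.

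Small leucine-rich proteoglycans are secreted proteins built from a short chain of leucine-rich repeats that bind collagen and set the width and spacing of its fibrils. Decorin and biglycan, the products of Dcn and Bgn, carry chondroitin or dermatan sulfate chains, whereas fibromodulin (Fmod) and lumican (Lum) can carry keratan sulfate. Several of them also bind growth factors and receptors outside the cell. Decorin binds TGF-beta and dampens signalling by receptor tyrosine kinases, and soluble biglycan can engage Toll-like receptors. In tissues these genes are typical of fibroblasts and other stromal cells.

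Neither group had the full marker profile of its labelled cell type. In 5 of the 6 libraries, the exception being control replicate 1, Leydig markers were near 0: the 8 markers summed to 5.26 to 7.86 CPM (counts per 1000000 counts of the library) in A20 overexpression, and to 2039, 3.97 and 6.29 CPM in control replicates 1, 2 and 3. Hsd3b1, a steroid dehydrogenase of the Leydig cell, stood at 532 CPM in control replicate 1 and had no count in any other library, and Cyp11a1, which makes the first steroid from cholesterol, stood at 851 CPM there and at no more than 0.144 CPM elsewhere. Whether control replicate 1 came from the same cell stock as the other 5 libraries is not given in the labels and was not tested, which limits every value from all 6 libraries. The 8 fibroblast and stromal markers summed to 10990 to 11410 CPM in A20 overexpression, and to 2858, 8361 and 10190 CPM in control replicates 1, 2 and 3, with Col1a1 and Col3a1 giving most of it and Thy1 at 0 in 5 of the 6 libraries and Tcf21 at 0 in all. The 7 Sertoli cell markers summed to 9.46 to 14.9 CPM in A20 overexpression and to 235, 23.0 and 31.5 CPM in the controls in the same order, almost all of it Clu, with Sox9 and Fshr at 0 throughout. Smooth muscle, macrophage, endothelial and germ cell markers, each list taken alone, summed to at most 91.0 CPM in every library. Cdh5, an endothelial marker, stood at 35.05 CPM in control replicate 1 and at no more than 0.319 CPM elsewhere. Total counts ran from 13841287 to 16917979, and Tnfaip3, the check of the labels, stood at 41.0, 33.7 and 43.6 CPM in A20 overexpression, against 30.9, 11.9 and 15.2 CPM in control. Because control replicate 1 stood apart, each comparison is given with all 6 libraries and with 5, leaving it out. Of the 18 marker genes kept, 2 were called with 5 libraries by edgeR, where 4.60% of all 13658 genes tested were called. Both were lower in A20 overexpression, as 2.68% of all genes were called lower. Both remained called when any 1 of the A20-overexpressing libraries was left out. Cd34, a surface glycoprotein of stromal and vascular progenitors, stood at 4.02, 2.17 and 2.65 CPM in A20 overexpression, against 11.2, 22.4 and 19.9 CPM in control (log2 fold change -2.87 ± 0.27, SE, edgeR adjusted p = 9.25e-06 with 5 libraries and 0.202 with 6). Clu, or clusterin, a secreted chaperone, stood at 9.10, 13.3 and 11.1 CPM in A20 overexpression, against 221, 22.9 and 31.1 CPM in control (log2 fold change -1.30 ± 0.21, SE, edgeR adjusted p = 0.00288 with 5 libraries and 0.298 with 6). The part of these marker levels in the results below was not tested.

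The 250 bases before the RefSeq start (GRCm38.p6) are shown for 3 of the 4 members that were clearly expressed, to set their promoters side by side. Capitals mark the GC box GGGCGG and the TATA box TATAAA on either strand.
Bgn, chrX:73483351-73483600, plus strand: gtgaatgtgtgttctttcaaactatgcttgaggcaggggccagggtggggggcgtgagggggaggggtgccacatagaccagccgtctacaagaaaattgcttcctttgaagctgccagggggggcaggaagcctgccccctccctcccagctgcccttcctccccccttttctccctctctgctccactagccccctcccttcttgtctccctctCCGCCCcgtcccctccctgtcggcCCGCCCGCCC
Ogn, chr13:49607765-49608014, plus strand: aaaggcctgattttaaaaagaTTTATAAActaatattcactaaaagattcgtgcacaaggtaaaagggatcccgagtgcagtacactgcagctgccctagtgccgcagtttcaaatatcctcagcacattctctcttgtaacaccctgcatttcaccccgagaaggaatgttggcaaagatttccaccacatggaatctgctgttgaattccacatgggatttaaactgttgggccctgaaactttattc
Fmod, chr1:134037004-134037253, plus strand: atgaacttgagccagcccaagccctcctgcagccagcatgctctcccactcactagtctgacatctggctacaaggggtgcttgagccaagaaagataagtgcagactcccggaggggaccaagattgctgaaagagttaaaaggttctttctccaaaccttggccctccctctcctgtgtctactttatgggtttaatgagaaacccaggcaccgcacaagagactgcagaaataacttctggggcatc
The Bgn window was 64.4% G and C and held the GC box 3 times near its end, with 2 of these overlapping. The Ogn window was 42.0% G and C and held TATAAA on both strands, in overlapping positions far from the start. The Fmod window, at 51.2% G and C, held neither. Among the members with few or no counts, Podn also had a window with the GC box, and Aspn one with TATAAA. Over 32851 such windows of mouse genes the median was 52.4% G and C, 32.7% held the GC box and 12.4% held TATAAA. The AP-1 sequence TGANTCA was in 6.75% of all windows and in none of the 8 windows of the 7 members matched in the table, and CCAAT was in 33.8% of all and in those of Aspn and Prelp. These matches are of letters alone. Dcn and Lum were not matched.

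RNA of Dcn was low and even in the cells overexpressing A20 and spread widely among the controls. Dcn (ENSMUSG00000019929, GRCm38 chromosome 10, 97479609 to 97518143, plus strand, up to 8 exons) stood at 52.2, 45.0 and 44.3 CPM in A20-overexpressing replicates 1, 2 and 3, and at 21.4, 145 and 231 CPM in control replicates 1, 2 and 3. Control replicates 2 and 3 lay above every A20-overexpressing library and control replicate 1 below every one, so the groups overlapped. The means were 47.2 CPM ± 4.37 (SD, n = 3) in A20 overexpression and 132 CPM ± 105 (SD, n = 3) in control, or 188 CPM ± 60.6 (SD, n = 2) in control without replicate 1. Between them, control replicates 2 and 3 differed by more than the whole range of the A20-overexpressing libraries.

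Bgn, the other class I member with a clear level, varied less. Biglycan RNA (ENSMUSG00000031375, chromosome X, 73483602 to 73495933) stood at 523, 513 and 546 CPM in A20 overexpression, and at 146, 681 and 569 CPM in control replicates 1, 2 and 3. The A20-overexpressing libraries lay between control replicate 1 and the other controls. Fmod, which binds collagen fibrils and aids their cross-linking (ENSMUSG00000041559, chromosome 1, 134037254 to 134048277), had the same order, at 24.2, 24.3 and 22.9 CPM in A20 overexpression and 9.84, 43.8 and 27.3 CPM in control. Ogn, or osteoglycin, a class III member (ENSMUSG00000021390, chromosome 13, 49608046 to 49624501), stood at 414, 386 and 409 CPM in A20 overexpression and at 129, 422 and 301 CPM in control. For Ogn control replicate 2 lay above and control replicate 3 below the A20-overexpressing libraries, so these groups overlapped even without control replicate 1.

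**Figure D1:**
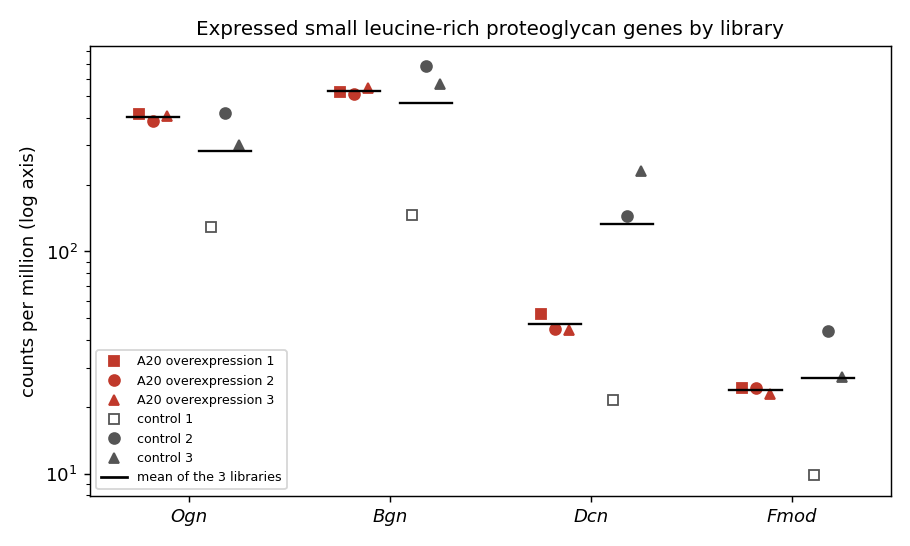
CPM on a log axis for the 4 clearly expressed members, with A20-overexpressing libraries in red and control libraries in grey, control replicate 1 as an open square and the mean of the 3 libraries as a bar. Dcn is at 44.3 to 52.2 CPM in A20 overexpression, against 145 and 231 CPM in control replicates 2 and 3, and control replicate 1 is the lowest library for each of the 4 genes.

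Per length, Ogn was the most abundant member in each of the 6 libraries, followed by Bgn, Dcn and Fmod. In the deposited FPKM (fragments per kilobase of gene and relative to a library size scaled by the authors), Ogn averaged 158 ± 3.36 in A20 overexpression and 112 ± 65.4 in control, and Bgn 86.9 ± 2.0 and 77.8 ± 50.6 in these groups (SD, n = 3 each). Dcn averaged 8.12 FPKM ± 0.692 in A20 overexpression and 23.0 FPKM ± 18.2 in control, and Fmod 7.24 FPKM ± 0.321 and 8.34 FPKM ± 5.74 (SD, n = 3 each). In A20 overexpression the neighbours Dcn and Fmod were close, with lowest and highest values of 7.57 and 8.90 FPKM for Dcn and 6.89 and 7.53 FPKM for Fmod. In control the SD of Ogn and that of Bgn exceeded the gap between their means. The SD of Dcn exceeded its gap to Fmod, and the SD of Fmod did not. Within each control library Ogn lay above Bgn and Dcn above Fmod.

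Of the expressed members, Dcn and Fmod had shares of proteoglycan RNA that did not overlap between the groups, and Bgn and Ogn had shares that did. The mean share of Ogn was 60.6% in A20 overexpression and 53.2% in control. The shares of a library depend on each other, so these are not separate differences. Of the summed FPKM of the 9 genes, Dcn made up 3.40%, 3.09% and 2.88% in A20-overexpressing replicates 1, 2 and 3, and 4.54%, 7.90% and 15.3% in control replicates 1, 2 and 3. In this measure the 2 groups did not overlap for Dcn. The share sets Dcn against the other members of the same library, and these were also low in control replicate 1. How many genes outside the 9 would separate on such a share was not tested. Bgn held 32.6 to 33.9% in A20 overexpression and 29.6 to 36.1% in control. Ogn held 60.2 to 61.2% in A20 overexpression, against 62.0%, 52.3% and 45.4% in control replicates 1, 2 and 3. Fmod held 2.62 to 2.94% in A20 overexpression against 3.20 to 4.21% in control, also without overlap. The FPKM of Bgn was 9.60, 10.9 and 11.8 times that of Dcn in A20 overexpression and 6.52, 4.50 and 2.36 times in control replicates 1, 2 and 3. The summed FPKM was 256 to 263 in A20 overexpression and 72.6, 336 and 257 in control replicates 1, 2 and 3.

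**Figure D2:**
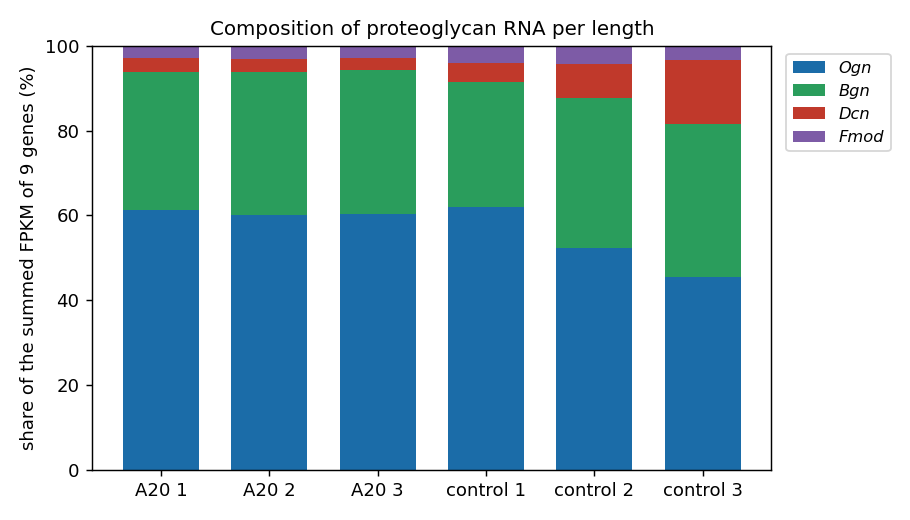
Share of the summed FPKM of the 9 genes in each library, with the A20-overexpressing libraries on the left; the 5 genes not drawn are together too small to see. Dcn makes up 2.88 to 3.40% in A20 overexpression, against 4.54 to 15.3% in control.

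The other 5 members had few or no counts. Lum had no count in any of the 6 libraries, 91206814 counts in all, which allows up to 0.0329 CPM by the level of 3 counts over the libraries together. Aspn, or asporin, had no count in A20 overexpression and 1, 1 and 0 counts in control. Omd, or osteomodulin, had 0, 1 and 5 counts in A20 overexpression and 5, 5 and 1 in control, and Podn, or podocan, 3, 0 and 3 in A20 overexpression and 0, 3 and 2 in control. Prelp, a class II member with a heparin-binding end, had 2, 6 and 10 counts in A20 overexpression and 1, 0 and 0 in control. The level of 3 counts in a single library lies at 0.177 to 0.217 CPM, and it was exceeded by Prelp in A20-overexpressing replicates 2 and 3 and by Omd in A20-overexpressing replicate 3 and control replicates 1 and 2. Lum, Aspn and Podn exceeded it in no library. Prelp was higher in A20 overexpression without overlap, but on 19 counts over the 6 libraries, 10 of them in A20-overexpressing replicate 3. Of the genes that passed the filter with 6 libraries, 7.62% were higher without overlap. The share among genes with so few counts was not taken. For Omd the groups overlapped, and for Lum, Aspn, Omd and Podn no difference between the groups was detectable at this depth. Such limits hold for counting error alone, as no molecular identifiers are described. None of the 5 passed the filter on low counts.

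Expressed and silent members lie side by side in the genome. On chromosome 13, Ecm2, Aspn, Omd and Ogn span 119.7 kb (49504810 to 49624501), and Ogn gave 31399 of the 31449 counts of these 4 genes over the 6 libraries. On chromosome 10, Dcn, Lum, Kera and Epyc span 202.8 kb (97479609 to 97682454), and Dcn gave all 7857 counts. On chromosome 1, Fmod gave 2292 of the 2337 counts of Optc, Prelp and Fmod. Aspn, Omd and Ogn lie inside the antisense gene Cenpp, a kinetochore gene at 3.43 to 5.83 CPM in A20 overexpression and 3.32 to 6.27 CPM in control; GENCODE M21 has no exon bases shared by Cenpp and Ogn or Omd, and 7 shared with Aspn. Prelp shares 350 exon bases with the antisense transcript Gm15851, which had no counts. The strand setting of the counting is not stated.

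Leaving out members that neighbour each other, 5 of the nearest protein-coding neighbours passed the filter, and 1 of these, Btg2, was called in the 5-library fit, where 4.60% of all genes were. Dcn is itself the neighbour below Lum. Btg1, an antiproliferative gene 856.8 kb below Dcn, stood at 161, 178 and 144 CPM in A20 overexpression and 101, 197 and 169 CPM in control, with a log2 fold change of -0.23 ± 0.15 (SE, edgeR adjusted p = 0.41) in the 5-library fit. Nol8, above Ogn, and Haus7, below Bgn, had log2 fold changes of -0.06 ± 0.18 and 0.10 ± 0.20 (SE) there, with edgeR adjusted p of 0.893 and 0.831. Scp2, a lipid carrier gene that spans part of Podn on the same strand without shared exon bases, had a log2 fold change of -0.08 ± 0.15 (SE, adjusted p = 0.799). Btg2, another antiproliferative gene, 26.9 kb above Fmod, was lower in A20 overexpression in that fit (log2 fold change -0.82 ± 0.18, SE, edgeR adjusted p = 0.017) and had an adjusted p of 0.733 with all 6 libraries; it stood at 20.3, 29.6 and 25.7 CPM in A20 overexpression, against 16.1, 45.9 and 40.7 CPM in control replicates 1, 2 and 3.

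With all 6 libraries the fitted log2 fold changes of A20 overexpression over control were -1.50 ± 0.67 (SE) for Dcn, 0.16 ± 0.49 for Bgn, 0.49 ± 0.40 for Ogn and -0.20 ± 0.47 for Fmod. Without control replicate 1 they were -2.02 ± 0.17 for Dcn, a 4.05-fold lower level, -0.28 ± 0.15 for Bgn, 0.11 ± 0.16 for Ogn and -0.62 ± 0.20 for Fmod. Bgn thus had opposite signs in the 2 fits. The SE of each fit draw partly on the variance of other genes. In the 5-library fit the 2 controls stood at 145 and 231 CPM for Dcn. In edgeR's quasi-likelihood test at an adjusted p of 0.05, 0 of the 4 members kept were among the called genes with 6 libraries, where 0.0150% of 13350 genes were called in either direction and 1341 genes had an unadjusted p under 0.05. With 5 libraries 1 member, Dcn, was among them, where 4.60% of 13658 genes were called in either direction and 2.68% of the 13658 were called lower in A20 overexpression. DESeq2 likewise had 0 members with 6 libraries and 1, Dcn, with 5. Without control replicate 1 the CPM of the groups did not overlap for 3 of the 4 members kept. These were Dcn, Bgn and Fmod, all lower in A20 overexpression, against 17.2% of all genes lower without overlap in that set. With all 6 libraries 0 of the 4 members kept were lower without overlap, against 9.27% of all genes. Prelp, which did not pass the filter, was higher without overlap in both sets, on 19 counts over the 6 libraries. Of the genes kept with 6 libraries, 7.62% were higher without overlap. Such a share was not taken for 5 libraries or for genes that failed the filter. By fitted log2 fold change Dcn was the gene ranked 160 from the lowest among 13658 in the 5-library fit and 365 from the lowest among 13350 in the 6-library fit. Cd34, of the stromal markers, lay lower in the same fits. The other 4 stromal markers kept were not called with 5 libraries. Their log2 fold changes were 0.49 for Col1a1, 0.31 for Nr2f2, 0.12 for Pdgfra and -0.10 for Col3a1. The part of Cd34 or of the other markers in the lower level of Dcn was not tested. Fewer cells of a kind and less RNA per cell cannot be told apart in such bulk libraries.

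**Figure D3:**
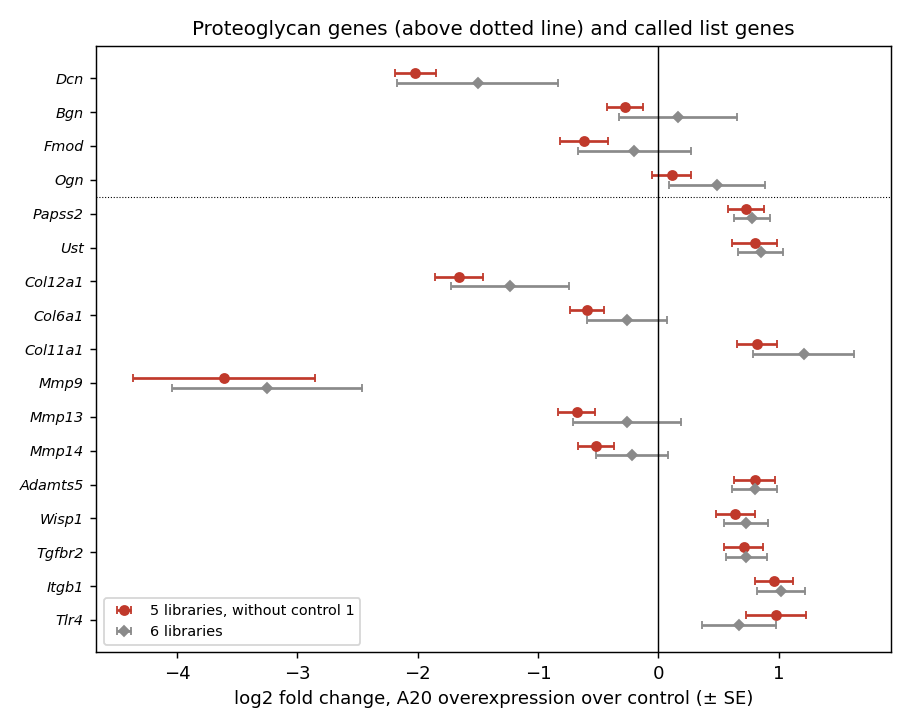
Log2 fold change of A20 overexpression over control, with bars of 1 SE, in the fits of 5 libraries (red circles) and 6 libraries (grey diamonds), for the 4 members above the dotted line and the 13 genes of the surrounding lists called with 5 libraries below it. Dcn is at -2.02 and -1.50, and Bgn changes sign between the fits, from 0.16 with 6 libraries to -0.28 with 5.

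Control replicate 1 was low for each of the 4 expressed members. Its log2 ratio to the mean of the other 5 libraries, with 0.5 CPM added to both, was -2.24 for Dcn, -1.95 for Bgn, -1.58 for Ogn and -1.49 for Fmod. The median over the 13350 genes tested was 0.13, and 0.15% of them lay below Dcn and 1.38% below Fmod.

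In the size of the difference, the other 3 members were closer to one another than Dcn was to any of them. As a measure of likeness, the log2(CPM + 0.5) of each gene was centred on its mean over the 6 libraries, and the root-mean-square difference between 2 genes was taken. It was 0.243 between Bgn and Ogn, 0.262 between Bgn and Fmod and 0.328 between Fmod and Ogn, against 0.763, 0.815 and 1.02 between Dcn and Fmod, Bgn and Ogn. Among 9781 protein-coding genes that averaged 5 CPM or more, Ogn and Fmod were the genes ranked 28 and 41 in nearness to Bgn, Bgn and Fmod those ranked 58 and 240 to Ogn, and Bgn and Ogn those ranked 59 and 173 to Fmod. From Dcn, Fmod, Bgn and Ogn were the genes ranked 63, 109 and 1184. By rank Fmod and Bgn thus stood nearer to Dcn than Fmod did to Ogn, although their differences were larger. In the other direction Dcn was the gene ranked 5795 from Fmod, 4820 from Bgn and 8757 from Ogn.

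The 5 genes nearest to Dcn were C3, Pglyrp3, Col12a1, C1s2 and C1s1, at differences of 0.332, 0.409, 0.449, 0.472 and 0.482. C3, complement component 3, stood at 68.3, 69.2 and 88.6 CPM in A20 overexpression, against 22.2, 149 and 284 CPM in control replicates 1, 2 and 3. C1s1, complement component 1s, stood at 60.7, 64.1 and 69.1 CPM in A20 overexpression and 44.2, 138 and 169 CPM in control, and Col12a1, a fibril-associated collagen, at 25.0, 14.5 and 16.1 CPM in A20 overexpression and 15.2, 52.5 and 62.3 CPM in control. In C3 and C1s1, as in Dcn, control replicate 1 was the lowest library and control replicate 3 the highest. C1s1 and C1s2 are close paralogs among which reads can be split, and the likeness rests on 6 libraries of which control replicate 1 stands apart.

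**Figure D4:**
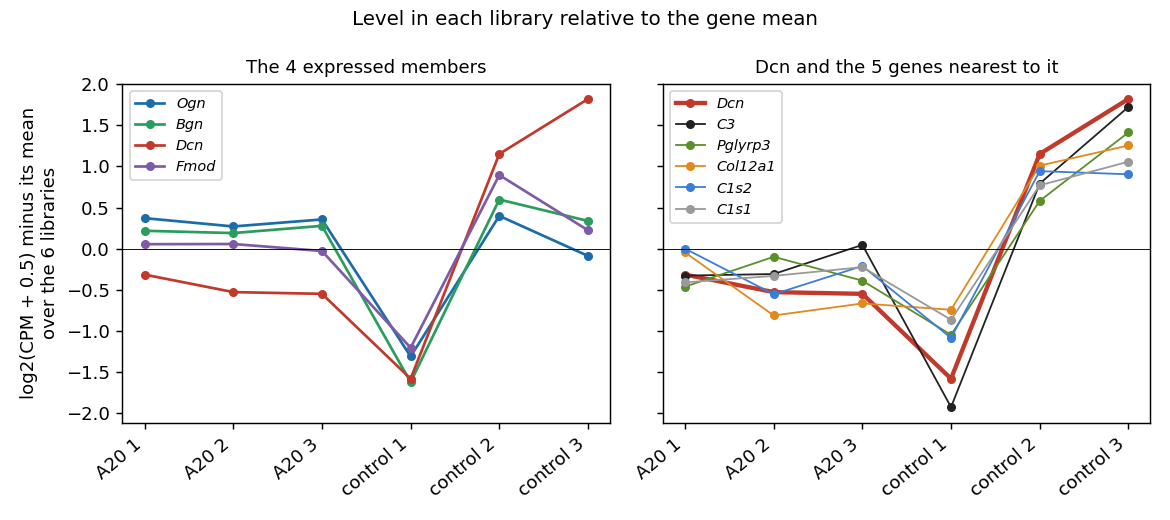
Log2(CPM + 0.5) in each library minus its mean over the 6 libraries, for the 4 expressed members (left) and for Dcn with the 5 genes nearest to it (right), A20-overexpressing libraries first; lines join the values of a gene and stand for no order of replicates. Dcn is below the other 3 members in A20 overexpression and above them in control replicates 2 and 3, and all 4 are lowest in control replicate 1.

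Of the 9 other genes of the family that were listed, 4 passed the filter and 0 were called with either 5 or 6 libraries by edgeR, DESeq2 or limma-voom, with 2 and 1 at an unadjusted edgeR p under 0.05. Tsku, or tsukushi, a secreted inhibitor of BMP signalling, stood at 54.6, 50.5 and 55.2 CPM in A20 overexpression, against 36.7, 19.9 and 44.3 CPM in control, without overlap, as 7.62% of the 13350 genes tested were higher without overlap with 6 libraries. Its log2 fold change was 0.71 ± 0.25 (SE, edgeR adjusted p = 0.433) with 6 libraries and 0.72 ± 0.24 (adjusted p = 0.105) with 5. Podnl1 stood at 25.4, 28.7 and 30.3 CPM in A20 overexpression and 30.0, 19.9 and 24.4 CPM in control. Chad, or chondroadherin, had 35, 34 and 36 counts in A20 overexpression and 35, 40 and 100 in control, so control replicate 3 alone was high. Chadl had 112 counts over the 6 libraries, Ecm2, Optc and Nyx had 31, 26 and 16, all 16 of Nyx in control replicate 1, and Kera and Epyc had none.

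Genes of chain synthesis, receptors, collagens and proteases around the proteoglycans moved in both directions. In 7 lists, chosen like the members with earlier results known, 0 of 107 genes kept were called with 6 libraries by edgeR. Of them, 18 had an unadjusted p under 0.05. DESeq2 called 6 with 6 libraries, namely Adamts5, Itgb1, Papss2, Tgfbr2, Ust and Wisp1, where it called 183 of all 13350 genes. With 5 libraries 13 of 109 were called, 8 higher and 5 lower in A20 overexpression, which is 11.9% against 4.60% of all genes. Of these 13 calls, Col12a1 and Itgb1 remained when each of the 5 libraries was left out in turn, and the other 11 were lost in at least 1 such fit. For 8 of the 13, control replicate 1 lay on the side of the other controls without overlap, as it did for 58.0% of the 628 called genes.

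Enzymes of chondroitin and dermatan sulfate synthesis, which build the chains of decorin and biglycan, had 2 of 24 genes higher in the 5-library fit and 0 lower, with a median log2 fold change of 0.08, against 0.00 over all genes tested. Papss2, which makes the sulfate donor, stood at 132, 129 and 135 CPM in A20 overexpression, against 79.3, 67.5 and 89.0 CPM in control, and its log2 fold change was 0.73 ± 0.15 (SE, edgeR adjusted p = 0.0106). Ust, which sulfates uronic acid in these chains, stood at 30.5, 27.3 and 39.0 CPM in A20 overexpression, against 18.5, 16.7 and 19.4 CPM in control (log2 fold change 0.80 ± 0.19, SE, edgeR adjusted p = 0.0237). Neither overlapped between the groups with all 6 libraries, as held for 7.62% of all genes in the higher direction, and their edgeR adjusted p were 0.202 and 0.254 there. Impad1, a nucleotide phosphatase of the Golgi and the most abundant gene of the list, had a log2 fold change of -0.09 ± 0.15 (SE, adjusted p = 0.778). Of keratan sulfate synthesis, 0 of 7 genes were called in either fit by edgeR, DESeq2 or limma-voom, with 1 and 0 at an unadjusted edgeR p under 0.05 in the fits of 5 and 6 libraries. B4galt1, a galactosyltransferase and the most abundant of them, had a log2 fold change of 0.04 ± 0.14 (SE, edgeR adjusted p = 0.892) with 5 libraries. Both calls of the chondroitin list were lost without A20-overexpressing replicate 1, 2 or 3, and that of Ust also without control replicate 2.

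Collagens, fibril partners and cross-linking genes had 1 of 28 higher and 2 lower with 5 libraries (median log2 fold change 0.02). Col12a1 fell (log2 fold change -1.66 ± 0.20, SE, edgeR adjusted p = 0.000161), although control replicate 1, at 15.2 CPM, lay within the A20-overexpressing range. Col6a1, of a microfibril collagen that binds decorin and biglycan, fell with a log2 fold change of -0.59 ± 0.14 (SE, edgeR adjusted p = 0.0248) and stood at 292, 341 and 321 CPM in A20 overexpression and 202, 448 and 490 CPM in control. Col11a1, of a minor fibrillar collagen, rose (0.82 ± 0.17, SE, adjusted p = 0.0135), at 349, 385 and 483 CPM in A20 overexpression against 73.4, 250 and 198 CPM in control. Fn1, or fibronectin, the most abundant gene of the list, stood at 12320, 9419 and 11860 CPM in A20 overexpression and 3640, 8878 and 13090 CPM in control, and the list's median log2 ratio of control replicate 1 to the other 5 libraries was -0.97. With 6 libraries the adjusted p of Col12a1, Col6a1 and Col11a1 were 0.472, 0.836 and 0.433 in edgeR. With 5 libraries Col6a1 was not called without any single A20-overexpressing library, nor Col11a1 without A20-overexpressing replicate 2 or 3.

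Among receptors and ligands bound by these proteoglycans, 4 of 19 genes were higher with 5 libraries and 0 lower, with a median log2 fold change of 0.27. Itgb1, the beta chain of collagen-binding integrins, stood at 2028, 1858 and 2249 CPM in A20 overexpression, against 1010, 1131 and 916 CPM in control, and rose by 0.96 ± 0.16 on the log2 scale (SE, edgeR adjusted p = 0.00392). Tgfbr2, the type II TGF-beta receptor, stood at 141, 112 and 152 CPM in A20 overexpression, against 88.7, 67.9 and 93.3 CPM in control (0.71 ± 0.16, SE, adjusted p = 0.0192). Wisp1, a matricellular protein reported to bind decorin and biglycan, stood at 193, 167 and 228 CPM in A20 overexpression, against 115, 104 and 142 CPM in control (0.64 ± 0.16, SE, adjusted p = 0.0319). For these 3 genes the groups did not overlap with all 6 libraries, against 7.62% of all genes higher without overlap, and edgeR's adjusted p with 6 libraries were 0.205, 0.269 and 0.278. Tlr4, a receptor for soluble biglycan, rose by 0.98 ± 0.25 with 5 libraries (SE, edgeR adjusted p = 0.0313), but control replicate 1, at 17.1 CPM, lay within the A20-overexpressing range of 13.2 to 22.6 CPM. Tgfbr2 and Tlr4 were not called without control replicate 2 or without A20-overexpressing replicate 1 or 3, nor Wisp1 without control replicate 2 or any A20-overexpressing library.

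Proteases that cut these proteoglycans or their precursors, listed with their inhibitors, had 1 of 15 genes higher and 3 lower with 5 libraries (median log2 fold change -0.32). Adamts5, an aggrecanase, stood at 548, 440 and 604 CPM in A20 overexpression, against 337, 250 and 347 CPM in control, a log2 fold change of 0.80 ± 0.17 (SE, edgeR adjusted p = 0.0135). Mmp13, a collagenase, and Mmp14, a membrane-bound metalloprotease, fell by 0.68 and 0.52 on the log2 scale (edgeR adjusted p = 0.0138 and 0.0481), with control replicate 1 below every A20-overexpressing library for both. Mmp9, a gelatinase, fell too, but on few counts, at 0.236, 0.0639 and 0.133 CPM in A20 overexpression against 0.717, 0.976 and 2.75 CPM in control. Adamts5 was not called without A20-overexpressing replicate 1 or 3, Mmp13 and Mmp14 without any single A20-overexpressing library, and Mmp9 without A20-overexpressing replicate 2 or control replicate 3; Mmp14 was also lost without control replicate 3. Of the other chondroitin sulfate proteoglycans and hyaluronan genes 0 of 12 were called with 5 libraries and 0 of 11 with 6 by edgeR, DESeq2 or limma-voom, with 2 and 1 at an unadjusted edgeR p under 0.05. Cd44, the hyaluronan receptor and their most abundant gene, had a log2 fold change of 0.22 ± 0.16 with 5 libraries (SE, edgeR adjusted p = 0.427).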

How the data were processed

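RNA libraries of TM3 cells were made with a SMARTER mRNA kit, per the labels' protocols. The authors deposited whole-number counts per gene, used as deposited, and FPKM values, which equal the count divided by gene length and by a library size scaled by the authors. The genome build was GRCm38, per the submitters' processing notes; aligner, counting tool and strandedness are not given in the sources used here. All 9 members had the same coordinates in GENCODE M21.

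The comparison used edgeR 4.0.16 in R 4.3.3: quasi-likelihood F test, TMM factors, the default filter by group, robust fitting, Benjamini-Hochberg adjustment over all genes kept and a threshold of 0.05. The approximate standard error is the size of the log2 fold change divided by the square root of F. F uses a variance moderated over all genes kept, so this error can be smaller than the gene's own spread gives. The members and lists were chosen with earlier results of these data known, as was the fit of 5 libraries without control replicate 1. CPM use library totals. FPKM, which served for levels and for the shares and ratios of the members, were also set against CPM per kilobase. Alternatives were RLE factors, library size alone, DESeq2 1.42.0, limma-voom (limma 3.58.1), no filter, a filter of 1 CPM in 3 libraries, a replicate block and leaving out each library. The procedure was tested on simulated counts. From each of the 7 lists up to 6 called genes and the most abundant gene are named, as are the 5 genes nearest to Dcn and those nearest neighbours of the members that passed the filter. Genes on chromosome 18 are not named here but enter the counts, medians and marker sums.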

Additional observations from a re-analysis of the deposited data

How the results depend on the processing

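Dcn lay lower in A20 overexpression under each alternative run, and its log2 fold change ran from -2.28 to -1.70 when 1 of the 5 libraries was left out (-1.70 without control replicate 3) and from -2.02 to -0.87 when 1 of 6 was (-0.87 without control replicate 3, -2.02 without control replicate 1). With 6 libraries Dcn was among the called genes in the fit without control replicate 1 and in no other. The sign of Fmod with 6 libraries was not stable, at -0.20 in the fit given, 0.41 without control replicate 2, 0.16 with limma-voom and 0.06 with the replicate block. With 1 of the 6 libraries left out the log2 fold change ran from -0.62 to 0.41 for Fmod, from -0.28 to 0.60 for Bgn (negative without control replicate 1 alone) and from 0.11 to 0.96 for Ogn. With 1 of the 5 left out it ran from -0.96 to -0.19 for Fmod, from -0.45 to -0.10 for Bgn and from -0.14 to 0.43 for Ogn, which changed sign; for each of these 3 the lowest value was without control replicate 3 and the highest without control replicate 2. With 5 libraries Fmod was also called without a filter, and Bgn and Fmod without control replicate 3, which leaves 1 control assumed to vary like the A20-overexpressing libraries.

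The number of genes called with 6 libraries, 2, was 23 without a filter, 183 with DESeq2, and 0 with library size alone and with limma-voom. It ran from 0 to 628 when 1 library was left out, 628 without control replicate 1. With 5 libraries the 628 genes became 1173 without a filter and 142 to 2423 when 1 library was left out, the lowest without A20-overexpressing replicate 1 and the highest without control replicate 3. List genes called numbered 0 with 6 libraries, 6 with DESeq2 and 0 to 13 with 1 library left out, and 13 with 5 libraries, 3 to 27 with 1 left out (3 without A20-overexpressing replicate 3, 27 without control replicate 3). Of those 13, library size alone lost Mmp14 and the filter of 1 CPM lost Mmp9.

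Deviations from the group means correlated at 0.0258, 0.115 and -0.0387 between same-numbered libraries. Control replicate 1 correlated better with A20-overexpressing replicate 3 (0.162) than with its own number. Such correlations showed no pairing by replicate number, but with 3 libraries a group they cannot exclude it. With the replicate block 2 genes were called with 6 libraries and 797 with 5, the log2 fold change of Dcn was -1.02 and -2.07, and with 5 libraries Col6a1 and Mmp14 were not called while Tsku was. The mean FPKM of each expressed member and its CPM per kilobase differed by less than the spread over libraries. Precision rests on 3 libraries a group, and on 2 controls in the fit of 5 libraries. For the 5 near-silent members it rests on counts of at most 10.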
